A study of Rattus norvegicus with 40 samples.

Results

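The 8 miRNAs described here are rno-miR-28-3p, rno-miR-28-5p, rno-miR-339-3p, rno-miR-339-5p, rno-miR-191a-5p, rno-miR-423-3p, rno-miR-423-5p and rno-miR-103-3p. They were chosen by name from the raw count matrix as candidate reference miRNAs for plasma, and all 8 of them were found among its 752 miRNAs. A reference miRNA is one against which others are scaled, and the study used miR-28-3p in that role for its PCR assays after choosing it with geNorm on the sequencing data of these same rats. Its stability in these libraries is therefore not independent evidence for that choice.

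The libraries came from adult male Sprague-Dawley rats that received either lateral fluid-percussion injury, a model of traumatic brain injury (TBI), or a sham operation. Tail-vein plasma was taken into K2 EDTA on D2 and again on D9 after surgery, and small RNA from each rat was sequenced at both times, which gave 40 libraries from 20 rats. Each rat is a separate animal, and the plasma aliquots of 1 animal were pooled before extraction. The 4 sham rats had the operation without the injury, the 7 TBI+ rats had injury and at least 1 unprovoked seizure on continuous video-EEG in the 6th month, and the 9 TBI− rats had injury and no such seizure. The labels name no other treatment or genotype, and the TBI+ and TBI− rats were told apart only months after the plasma was taken.

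Mature miRNAs are cut from a hairpin whose 5′ and 3′ arms give the -5p and -3p strands, and bases 2 to 8 of the mature strand, the seed, pair with target mRNAs. In plasma they travel in vesicles and protein complexes, and blood cells are a major source of them. A reference for such samples has to hold its share of the reads when the injury, the day, the amount of RNA and the admixture of blood cell RNA all vary. In plasma, fewer cells releasing a miRNA and less release per cell cannot be told apart.

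RefSeq (GRCr8) held the mature sequence of 7 of the 8 members. They are shown because the seed and the last bases decide which miRNAs share targets with a reference and which could share its reads. Capitals mark the seed.
miR-28-3p: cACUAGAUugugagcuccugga
miR-28-5p: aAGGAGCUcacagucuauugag
miR-708-5p: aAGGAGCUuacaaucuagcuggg
miR-339-3p: uGAGCGCCucgacgacagagcca
miR-339-5p: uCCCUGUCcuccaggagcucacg
miR-191a-5p: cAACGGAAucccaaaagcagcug
miR-423-5p: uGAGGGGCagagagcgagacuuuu
miR-103-3p: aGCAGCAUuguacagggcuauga
miR-107-3p: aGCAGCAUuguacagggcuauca

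In GRCr8, miR-28-3p lies at chr11:89480263-89480284 and miR-28-5p at chr11:89480303-89480324, both on the minus strand within Lpp. MiR-339-3p lies at chr12:20391445-20391467 and miR-339-5p at chr12:20391410-20391432, on the plus strand within C12h7orf50. MiR-191a-5p lies at chr8:118142641-118142663 on the plus strand within Dalrd3. MiR-423-5p lies at chr10:62412317-62412340 on the minus strand within Nsrp1. MiR-103-3p is made from 2 genes, Mir103a1 within Pank3 and Mir103a2 within Pank2, and the copy of Mir103a2 lies at chr3:138963278-138963300 on the plus strand. Its near copy miR-107-3p lies at chr1:241750431-241750453 on the minus strand within Pank1. Each of these miRNAs thus sits inside a protein-coding gene.

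The 3p arm of miR-28, both arms of miR-339 and miR-191a-5p shared their seed with 0 other rat miRNAs of the reference. MiR-28-5p shared its seed with miR-708-5p (chr1:160011168-160011190, plus strand), and the first 8 bases of both were identical. This relative was rare, at 2.63 CPM in sham and 4.18 CPM in TBI rats on D2, far under the 60.2 CPM of the lowest miR-28-5p library. MiR-423-5p shared its seed with miR-3573-5p (chrX:68299280-68299301, plus strand), which was at 0 CPM in every D2 library. MiR-103-3p and miR-107-3p are both 23 nt long and differed by G22C alone, counted from the 5′ end of miR-103-3p. Across the 40 libraries miR-103-3p had between 2.04 and 2.30 times the reads of miR-107-3p (median 2.11). The handling of reads that fit several places is not given in the sources used here, so the reads of miR-103-3p and miR-107-3p may have been split between the rows and their values are uncertain as separate measurements. The opposite arms of the hairpins were close to absent, since the highest of miR-103-1-5p and miR-103-2-5p in any D2 library was 3.97 CPM and miR-191a-3p was at 0 on D2.

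The deposited values are raw read counts per mature miRNA. Library totals, the sums over all miRNAs, lay between 140636 and 2864893 reads, and the 4 sham libraries of D9 were among the smallest at 140636, 162125, 202059 and 358202 reads. Levels are given in CPM, the reads scaled to a total of 1000000 per library. No length correction was made, since mature miRNAs are of similar length. The libraries were made by adapter ligation and PCR, and whether these recover every miRNA equally was not tested. Ranks of different miRNAs and ratios of arms therefore describe reads, and may differ from the amounts in plasma. The library numbers in the column names fall in 3 runs whose meaning is not given. The sham libraries of D2 belong to the first run and those of D9 to the third, so in sham rats the day and the run cannot be told apart. On neither day do TBI− and sham libraries share a run, so any comparison of them is also one between runs. MiRNAs typical of blood cells were present in every library, with 3 of 4 red blood cell markers found by name and read in all 40, and 4 of 4 white blood cell and platelet markers. The hepatocyte marker miR-122-5p had 0 reads in all 40. The red blood cell markers summed to 1673 to 6543 CPM on D2 and to 2361 to 13571 CPM on D9, and the white blood cell and platelet markers to 12938 to 69845 CPM on D2 and 16169 to 90110 CPM on D9.

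The members spanned a wide range of read levels. MiR-191a-5p was the 7th most abundant of the 752 miRNAs, at 39168 ± 14418 CPM (SD, n = 40 libraries). It was followed by miR-423-5p at 11481 ± 2707, miR-103-3p at 8588 ± 3141 and miR-423-3p at 4690 ± 1076 CPM. MiR-28-3p came 66th at 955 ± 141 CPM. The least abundant were miR-339-3p at 416 ± 80.9, miR-339-5p at 412 ± 126.3 and miR-28-5p at 117.9 ± 34.9 CPM.

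In a single library, miR-191a-5p exceeded miR-423-5p in 39 of 40, miR-423-5p exceeded miR-103-3p in 32, and miR-103-3p exceeded miR-423-3p in 36. MiR-423-3p exceeded miR-28-3p in all 40, and miR-339-5p exceeded miR-28-5p in all 40, and in both pairs the ranges over the libraries did not meet. MiR-339-3p was above miR-339-5p in only 23 of 40 libraries, and the levels of these partners did not differ beyond their spread. All members together made up between 3.64 and 9.40% of the reads of a library. Every member had reads in each library, the fewest being 11 reads of miR-28-5p.

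**Figure D1:**
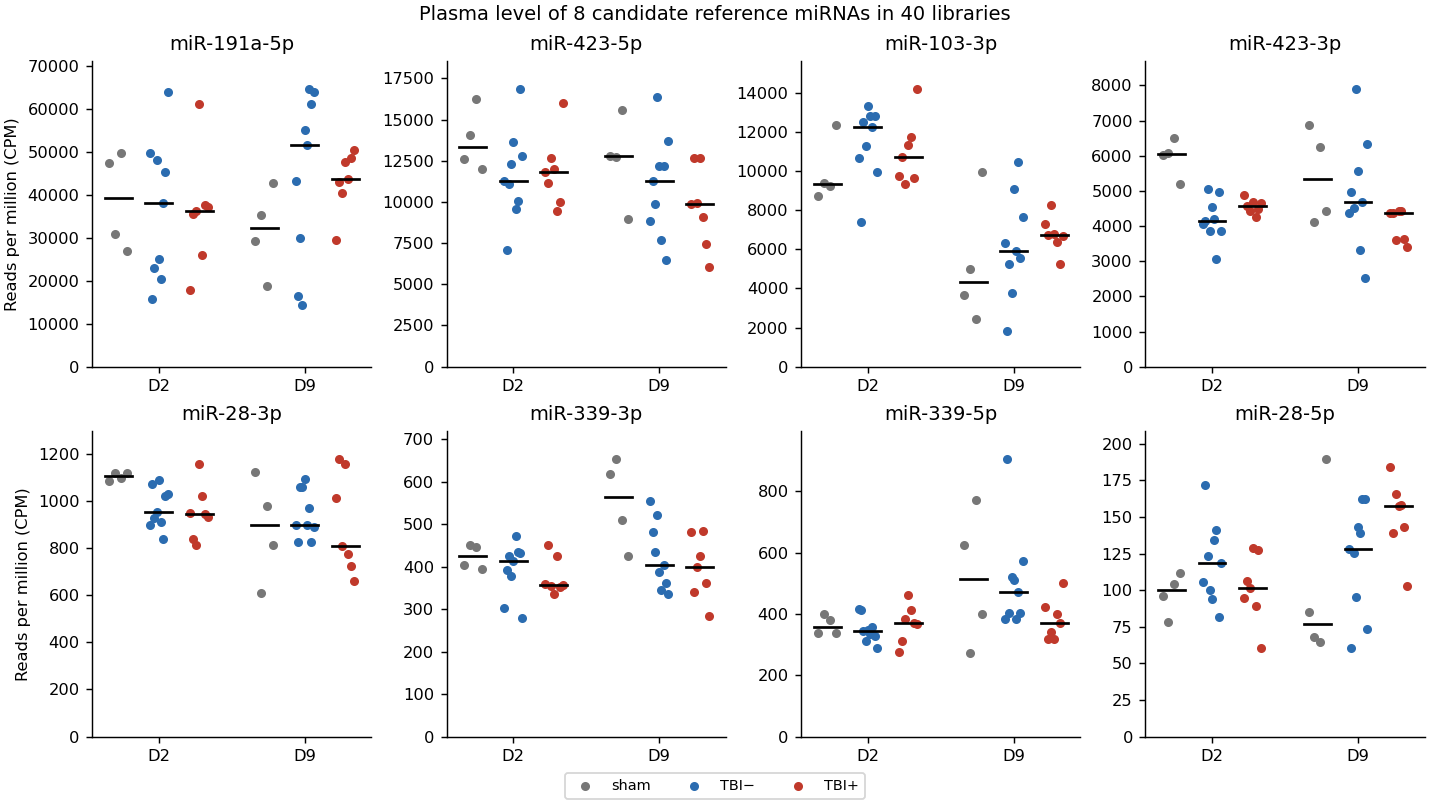
Level of each of the 8 members (CPM, linear axes from 0) in every library of the sham (grey), TBI− (blue) and TBI+ (red) rats on D2 and D9, where points are libraries and bars are group medians. MiR-28-3p stays between 611 and 1180 CPM throughout, while miR-103-3p is lower on D9 in every group.

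MiR-28-3p had the lowest SD of log2 CPM, 0.22, among 130 miRNAs that had 10 or more reads in all libraries (median 0.63). Its levels lay between 611 CPM in the D9 library of sham rat 2 and 1180 CPM in that of TBI+ rat 2, a 1.93-fold range over libraries whose totals differed far more. The CV was 14.7%, against 23.6% for miR-423-5p, 36.8% for miR-191a-5p and 36.6% for miR-103-3p. MiR-103-3p spread 7.78-fold, from 1824 to 14191 CPM, the widest of the members.

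The spread was described further by geNorm's M, the mean over all other miRNAs of the SD of the log2 ratio to each of them. A low M means that a miRNA kept its ratio to the others from library to library. It was computed over the 40 libraries for the 130 miRNAs with at least 10 reads in each, and no test was made on it. M ran from 0.668 to 1.47 over these 130, with a median of 0.860. MiR-28-3p had the lowest M, 0.668 ± 0.0446 (jackknife SE over rats). The next was miR-30d-5p at 0.669 ± 0.0490, a difference far smaller than either error. The third was miR-92a-3p at 0.679, so the first place is not separated from its neighbours.

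Among the other members, miR-339-3p had M 0.680 ± 0.0432 (4th), miR-423-3p 0.699 ± 0.0462 (9th) and miR-423-5p 0.717 ± 0.0484 (15th). MiR-339-5p followed at 0.747 ± 0.0746 (29th) and miR-28-5p at 0.755 ± 0.0608 (34th). MiR-191a-5p ranked 51st with 0.803 ± 0.0533. MiR-103-3p ranked 67th with 0.866 ± 0.0720, which is about the median of the 130. Neighbours among the 8 differed by less than the SE of either, except that miR-191a-5p and miR-103-3p differed by more than the SE of the former.

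**Figure D2:**
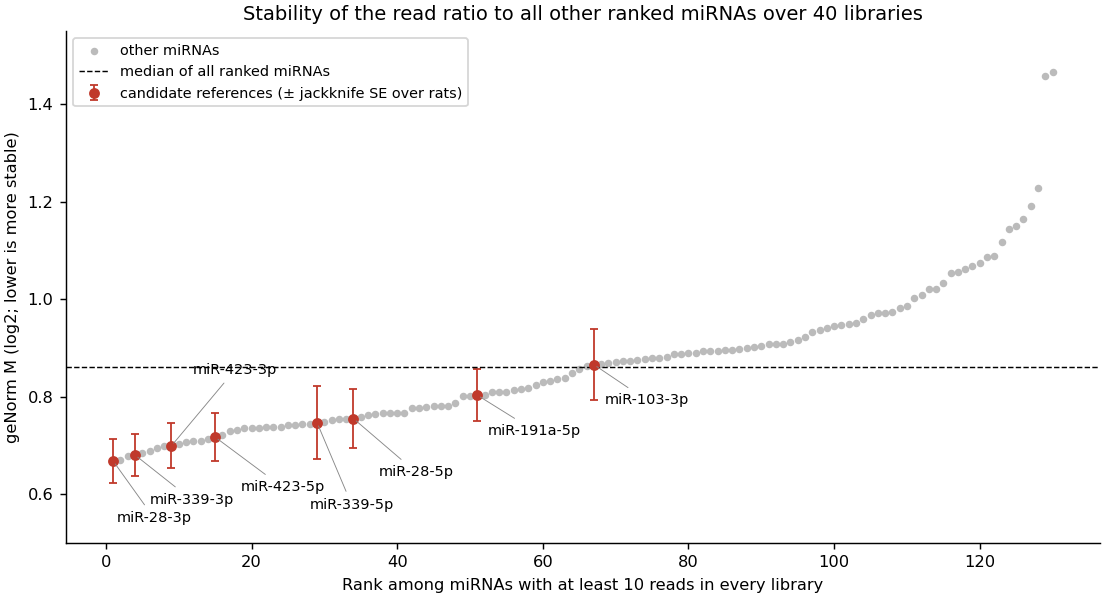
GeNorm M (log2 units) against its rank for the 130 miRNAs with at least 10 reads in each of 40 libraries, with the 8 members in red with jackknife SE over rats and a dashed line at the median of 0.860. MiR-28-3p has the lowest M, 0.668, and miR-103-3p lies at the median line with 0.866.

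The ranking depended on how geNorm was applied. When the least stable miRNA was removed step by step until a pair remained, the pair was miR-27a-3p and miR-27b-3p, followed by miR-30e-3p. Such an order rests on ratios among the miRNAs still left, so it favours those that vary together. Whether the rows of this pair share reads was not tested. In that order miR-28-3p came 39th, miR-339-3p 41st and miR-423-3p 47th, while miR-191a-5p rose to 13th. With only the 8 members in the calculation, miR-28-3p again had the lowest M at 0.459, ahead of miR-423-3p at 0.499, and miR-103-3p the highest at 0.773. Stepwise removal among the 8 ended with the 2 arms of miR-423.

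On D2 alone, M of miR-28-3p was 0.512 and ranked 2nd of 186 miRNAs with enough reads. On D9 alone it was 0.691 and ranked 4th of 130. In the TBI rats alone it was 0.639 and ranked 1st. After thinning every library to the smallest total, it was 0.682 and ranked 5th. Leaving out each sham rat in turn moved it only between 0.650 and 0.676, with rank 1 or 2.

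The miRNA that kept the steadiest ratio to miR-28-3p was miR-423-3p, with an SD of the log2 ratio of 0.29 over the 40 libraries. MiR-30d-5p and miR-423-5p followed at 0.32 each. The other arm of its own hairpin, miR-28-5p, was much farther from it at 0.49. For miR-103-3p the closest were miR-107-3p at 0.047, miR-23a-3p at 0.32 and miR-23b-3p at 0.32. Counting error accounted for 6.62% of the variance of miR-28-3p, for 16.0% of that of miR-28-5p and for 0.0286% of that of miR-191a-5p. This share covers the sampling of reads only, because PCR copies of 1 molecule count as separate reads.

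The first comparison asked whether the members differed between TBI and sham rats 2 days after surgery. MiR-28-3p had 1085, 1117, 1098 and 1118 CPM in sham rats 1 to 4 (1105 ± 16.0, SD, n = 4), which is a CV of 1.45%. In the TBI rats its lowest level was 813, its median 948 and its highest 1159 CPM (963 ± 96.7, SD, n = 16). The sham rats lay close together in the upper part of the TBI range, and the groups overlapped. TBI+ rats had 813, 947 and 1159 CPM as lowest, median and highest, and TBI− rats 841, 952 and 1092 CPM.

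After TMM normalization, which sets the scale from all miRNAs, miR-28-3p differed by log2 −0.07 ± 0.16 (SE, edgeR's quasi-likelihood test, 95% interval −0.40 to 0.27, Benjamini-Hochberg adjusted p = 0.861). Scaled by library totals alone, the difference was −0.20 (edgeR adjusted p = 0.448), and between the sham and TBI+ rats of the same run of library numbers it was −0.21, with an edgeR adjusted p of 0.705. None of these passed the test, although the means of log2 CPM, 10.11 ± 0.021 in sham and 9.90 ± 0.14 in TBI rats (SD), lay farther apart than either SD. The sham SD is below the counting error of the sham libraries, so it is a weak yardstick.

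MiR-423-3p was the member that stood closest to a difference on D2. Sham rats 1 to 4 had 6025, 6080, 6500 and 5204 CPM (5952 ± 542, SD, n = 4). TBI rats had 3068, 4455 and 5060 CPM as lowest, median and highest (4357 ± 503, SD, n = 16). Every sham rat was above every TBI rat. Such a gap occurred for 12 of the 565 miRNAs read on D2 (2.12%), and miR-423-3p was the only member among them.

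On the TMM scale miR-423-3p was lower in TBI rats by log2 −0.33 ± 0.15 (edgeR, 95% interval −0.64 to −0.02). Its unadjusted p in edgeR was 0.0360 and the adjusted p 0.230, which misses the threshold of 0.05. With library totals alone as the scale the difference was −0.45 (edgeR adjusted p = 0.0456), and within the same run of library numbers it was −0.33 (edgeR adjusted p = 0.574). The other arm, miR-423-5p, had 12601, 14048, 16272 and 12005 CPM in the sham rats and from 7095 to 16865 CPM (median 11550) in the TBI rats. Its groups overlapped, and its difference was −0.12 ± 0.18 (edgeR adjusted p = 0.752).

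MiR-103-3p had 8736, 9388, 9234 and 12351 CPM in the sham rats and 7414, 11302 and 14191 CPM as lowest, median and highest in the TBI rats on D2. The ranges overlapped, and the difference of log2 0.30 ± 0.17 (95% interval −0.05 to 0.64) had an edgeR adjusted p of 0.366. MiR-191a-5p ranged from 26916 to 49779 CPM in sham and from 15724 to 64090 CPM in TBI rats, so that the spread within a group was wider than any gap between the group means. Its difference was 0.04 ± 0.29 (95% interval −0.55 to 0.63, edgeR adjusted p = 0.954).

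The rarer members showed the same picture on D2. MiR-28-5p had 78.0 to 111.9 CPM in sham and 60.2 to 171.8 CPM in TBI rats (log2 difference 0.32 ± 0.24, edgeR adjusted p = 0.454). MiR-339-3p had 394 to 452 CPM in sham and 279 to 473 CPM in TBI rats (−0.02 ± 0.17, edgeR adjusted p = 0.960). MiR-339-5p had 336 to 398 CPM in sham and 275 to 462 CPM in TBI rats (0.10 ± 0.18, edgeR adjusted p = 0.799). In all 3 of them the sham range lay inside the TBI range.

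Counted together, 0 of the 8 members passed the test on D2 in edgeR, where 6.19% of the 565 miRNAs did (35, with 18 higher and 17 lower in TBI rats). At an unadjusted p below 0.05 in edgeR 1 of the 8 passed, against 18.2% of all. DESeq2 also called 0 of the 8, where it called 8.14% of the 565, those without an adjusted p included. The median absolute log2 difference of the members was 0.11, against 0.54 over all miRNAs and 0.23 over the 130 with at least 10 reads in each library, among which 11 were called (8.46%). Against sham rats, TBI+ rats also gave 0 of the 8 (background 3.19%) and TBI− rats 0 of the 8 (background 6.19%). These comparisons share the sham rats, and the TBI− rats have no run of library numbers in common with them.

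The same question was asked on D9. MiR-28-3p had 1123, 611, 980 and 815 CPM in sham rats 1 to 4 (882 ± 221, SD, n = 4), from at most 292 reads each. Its level in sham rat 2, from 99 reads, had a 95% exact binomial interval of 496 to 743 CPM, which lies below the level of sham rat 1. TBI rats had 661, 898 and 1180 CPM as lowest, median and highest (928 ± 155, SD, n = 16), and the groups overlapped. TBI+ rats spread from 661 to 1180 CPM (median 811) and TBI− rats from 826 to 1092 CPM (median 899).

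On the TMM scale miR-28-3p differed by log2 0.18 ± 0.23 on D9 (95% interval −0.30 to 0.65, edgeR adjusted p = 0.807). The value rested on single sham rats: it was −0.11 without sham rat 2 and 0.35 without sham rat 1, and under neither did it pass the test (edgeR adjusted p = 0.882 and 0.723). Scaled by library totals it was 0.07.

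MiR-423-3p no longer parted the groups on D9. The sham rats had 6883, 4108, 6236 and 4430 CPM and the TBI rats 2531, 4397 and 7903 CPM as lowest, median and highest. Its difference was −0.16 ± 0.24 (edgeR adjusted p = 0.839). MiR-423-5p had 8978 to 15570 CPM in sham and 6066 to 16382 CPM in TBI rats (−0.16 ± 0.24, edgeR adjusted p = 0.838). Both arms overlapped between the groups.

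MiR-191a-5p had 29160, 35399, 18846 and 42674 CPM in sham rats 1 to 4 on D9, and 14412, 45642 and 64709 CPM as lowest, median and highest in TBI rats. The difference was 0.59 ± 0.33 (95% interval −0.08 to 1.25), and it did not pass the test (edgeR adjusted p = 0.416). The lowest and the highest of all 40 libraries for this miRNA were both TBI− rats on D9, rats 4 and 7. MiR-103-3p had 3648, 4984, 2415 and 9933 CPM in sham and 1824, 6524 and 10438 CPM in TBI rats (0.40 ± 0.33, edgeR adjusted p = 0.661). Without sham rat 4 the differences were 0.77 for miR-191a-5p and 0.91 for miR-103-3p, and without sham rat 3 they were 0.39 and 0.14, none of them called in edgeR (adjusted p = 0.233, 0.137, 0.800 and 0.870).

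MiR-339-3p had 619, 654, 510 and 424 CPM in sham rats and 283, 402 and 554 CPM as lowest, median and highest in TBI rats. Sham rats 1 and 2 were above every TBI rat and sham rats 3 and 4 were not, with a difference of −0.32 ± 0.23 (95% interval −0.78 to 0.14, edgeR adjusted p = 0.574). MiR-339-5p had 271 to 772 CPM in sham and 319 to 906 CPM in TBI rats (−0.08 ± 0.28, edgeR adjusted p = 0.885). MiR-28-5p had 85.3, 67.8, 64.3 and 190 CPM in the sham rats, the first 3 from only 12, 11 and 13 reads, and 60.2 to 184 CPM (median 141) in the TBI rats (0.46 ± 0.33, edgeR adjusted p = 0.574). Without sham rat 4 it differed by 1.01 (edgeR adjusted p = 0.113) and without sham rat 2 by 0.22 (edgeR adjusted p = 0.877).

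In all, 0 of the 8 members passed on D9 in edgeR, where 3.51% of 541 miRNAs did (19, with 6 higher and 13 lower in TBI rats). DESeq2 called 0 of them as well, where it called 4.81% of the 541, those without an adjusted p included. The groups did not overlap for 3 of the 541 miRNAs (0.555%), and no member was among these. The median absolute difference was 0.25 for the members, 0.41 for the 130 well-covered miRNAs and 0.73 for all. TBI+ rats against sham rats gave 0 of the 8 (background 1.85%), as did TBI− rats against the same sham rats (background 4.81%). The TBI− and sham rats again had no run of library numbers in common.

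Rats that later had epilepsy were then compared with those that did not. On D2 the members differed by between log2 −0.33 (miR-28-5p) and 0.04 (miR-423-3p), with edgeR adjusted p values of at least 0.786. On D9 they differed by between −0.34 (miR-339-5p) and 0.32 (miR-28-5p), with edgeR adjusted p values of at least 0.845. MiR-28-3p differed by −0.11 ± 0.16 on D2 (95% interval −0.43 to 0.20) and by −0.03 ± 0.22 on D9 (95% interval −0.49 to 0.42). None of the 8 was called by edgeR, nor was any other miRNA (0% of 565 and of 541, with 38 and 22 at an unadjusted p below 0.05), and DESeq2 called 0 as well.

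The days were compared within rats by their CPM ratios and over the groups in edgeR. The main edgeR fits held no term for the rat, so their errors and p values do not use the pairing. MiR-103-3p was lower on D9 than on D2 in 20 of 20 rats. Its log2 ratio of D9 to D2 CPM had a mean of −0.92 ± 0.53 (SD, n = 20 rats) and ran from −2.02 to −0.18. It was −1.11 ± 0.68 in sham (n = 4), −0.70 ± 0.31 in TBI+ (n = 7) and −1.01 ± 0.59 in TBI− rats (n = 9). No rat of any group had a ratio above 0.

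In TBI rats the median of miR-103-3p went from 11302 CPM on D2 to 6524 CPM on D9. TBI+ rats spanned 9351 to 14191 CPM on D2 and 5234 to 8250 CPM on D9, and these ranges did not meet. How many of all miRNAs were parted in this way was not counted. Among the 130 well-covered miRNAs, edgeR called 30% between the days in TBI+ rats. TBI− rats spanned 7414 to 13304 CPM and 1824 to 10438 CPM. On the TMM scale miR-103-3p fell by log2 −0.78 ± 0.16 over all TBI rats (95% interval −1.11 to −0.46, edgeR adjusted p = 0.000136). MiR-107-3p, which may share its reads, fell by −0.86 ± 0.17 (edgeR adjusted p = 5.1e-05).

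In TBI− rats alone the fall of miR-103-3p was −0.93 ± 0.21 (edgeR adjusted p = 0.00116). In TBI+ rats it was −0.64 ± 0.24 and missed the threshold (edgeR adjusted p = 0.0594). In sham rats it was −0.94 ± 0.32 (edgeR adjusted p = 0.0677), and with the rat as a block −1.09 ± 0.34 (edgeR adjusted p = 0.0344). The difference between the changes in TBI and sham rats was 0.16 ± 0.36 (edgeR's interaction term, 95% interval −0.56 to 0.87, adjusted p = 1.00), so a difference of injury in this change was not shown.

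An index of red blood cell RNA moved with the day as well, while the summed red blood cell markers overlapped between the days. The hemolysis index, the log2 ratio of miR-451-5p, abundant in red blood cells, to miR-23a-3p, had a mean of −0.28 in TBI rats on D2 (−1.21 to 0.90) and of 1.28 on D9 (0.06 to 2.39). In sham rats the means were −0.52 and 1.13. The summed red blood cell markers had medians of 3487 CPM on D2 and 4126 CPM on D9 in sham rats, and of 3687 and 6106 CPM in TBI rats. A fall of the denominator miR-23a-3p also raises the index, and this was not separated from a rise of miR-451-5p. With the index in the fit the change of miR-103-3p over TBI rats was −0.73 and no longer called (edgeR adjusted p = 0.0749), and in TBI− rats it was −0.87 (edgeR adjusted p = 0.0593). The denominator miR-23a-3p was also the second closest miRNA to miR-103-3p, so the index and miR-103-3p are not independent measurements. With miR-451-5p alone in the fit, a choice made after the data were seen, the change over TBI rats was −1.003 (edgeR adjusted p = 5.82e-06). The part of red blood cell RNA in the result was not tested beyond these fits. With the run of library numbers in the fit, the change was −0.69 (edgeR adjusted p = 0.00116).

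**Figure D3:**
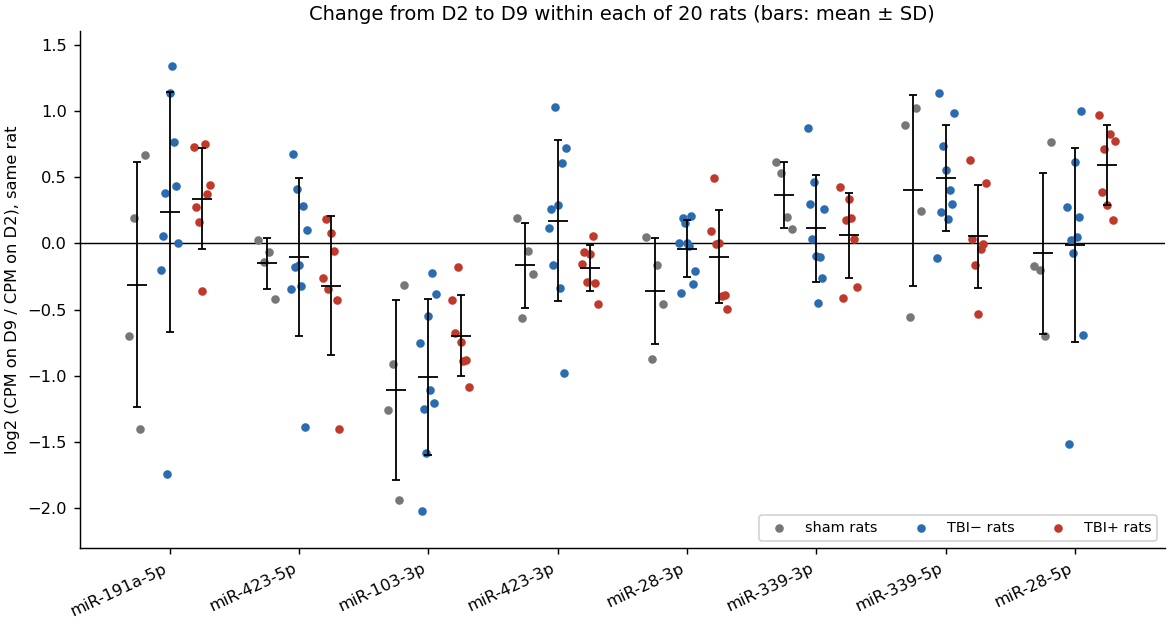
Log2 ratio of D9 to D2 CPM of the 8 members in each of the 20 rats, by group, where points are rats, bars are group means ± SD and the line marks no change. All 20 rats lie below the line for miR-103-3p, with ratios from −2.02 to −0.18, while miR-28-3p lies on both sides with 11 rats below and 9 above.

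MiR-28-3p had no common direction between the days. It was lower on D9 in 11 rats and higher in 9, with a mean log2 ratio of −0.13 ± 0.31 (SD, n = 20). On the TMM scale the difference over TBI rats was −0.04 ± 0.13 (95% interval −0.30 to 0.21, edgeR adjusted p = 0.918). In sham rats it was −0.29 ± 0.26 (95% interval −0.80 to 0.22, edgeR adjusted p = 0.631). The change in TBI rats differed from that in sham rats by 0.25 ± 0.29 (edgeR adjusted p = 0.864).

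MiR-28-5p, from the same hairpin, was higher on D9 in 7 of 7 TBI+ rats, by a mean log2 ratio of 0.59 ± 0.30 (SD, n = 7). Its levels there went from 60.2, 101.3 and 129.0 CPM (lowest, median and highest) on D2 to 102.7, 157.8 and 184 CPM on D9. In TBI− rats it was higher in 6 of 9 with a mean of −0.01 ± 0.73. On the TMM scale the change in TBI+ rats was 0.66 ± 0.24 (95% interval 0.18 to 1.14) and just missed the threshold (edgeR adjusted p = 0.0515), and it was called under 4 of 14 alternatives, with an edgeR adjusted p of 0.0200 after a filter on low counts. Whether the change differed between TBI+ and TBI− rats was not tested.

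MiR-339-5p was higher on D9 in 8 of 9 TBI− rats, by 0.49 ± 0.40 (SD, n = 9), with an edgeR estimate of 0.49 ± 0.20 (adjusted p = 0.0721). Over all TBI rats the estimate was 0.31 ± 0.15 (edgeR adjusted p = 0.112). MiR-339-3p was higher in 4 of 4 sham rats, by 0.36 ± 0.25 (SD, n = 4), with an edgeR estimate of 0.40 ± 0.26 (adjusted p = 0.455). MiR-191a-5p was higher in 14 of 20 rats (0.16 ± 0.76), miR-423-5p lower in 13 and miR-423-3p lower in 12. None of these passed the test in edgeR's main setting. Under alternatives miR-339-5p was called in 5 of 14 in TBI− rats (lowest adjusted p = 0.0229, edgeR with miR-451-5p in the fit) and in 2 of 14 over all TBI rats, and miR-339-3p in 1 of 14 in sham rats (DESeq2, adjusted p = 0.0328).

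By count, 1 of the 8 members, miR-103-3p, was called between the days over all TBI rats, where 32.5% of 581 miRNAs were called (18.4% lower), and the same miRNA was the 1 called in TBI− rats (background 20.1%). In TBI+ rats 0 were called (background 16%), in sham rats 0 (background 5.68%) and for the difference of changes 0 (background 3.27%). The members' median absolute change over TBI rats was 0.24, against 0.50 for the 130 well-covered miRNAs, of which 57.7% were called, and 0.55 for all. DESeq2 called 2 in TBI+ rats (miR-103-3p and miR-28-5p), 2 in TBI− rats (miR-103-3p and miR-339-5p) and 1 in sham rats (miR-339-3p), where it called 16.9%, 22.03% and 8.26% of the 581 miRNAs fitted, those to which it gave no adjusted p included.

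Of the hairpins, 3 had both arms among the members, so that the ratio of 3p to 5p reads could be followed without any scaling. For miR-28 the 3p arm dominated, at 4.29 to 15.5 times the 5p arm (median 8.46). For miR-339 the arms were near parity, at 0.532 to 2.41 (median 1.06). For miR-423 the 5p arm dominated in every library, with ratios of 0.291 to 0.583 (median 0.433). Which arm leads was thus fixed for miR-28 and miR-423 in all 40 libraries and not for miR-339.

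On D2 the miR-28 ratio was 9.99 to 14.3 in sham and 5.97 to 15.5 in TBI rats, and on D9 it was 4.29 to 15.2 and 4.89 to 13.8. The sham range lay inside the TBI range on D2. In TBI+ rats on D9 it was 4.89 to 8.49, with a median of 5.50. TBI rats differed from sham rats by log2 −0.36 ± 0.22 on D2 (limma, adjusted p = 0.346) and by −0.36 ± 0.33 on D9 (limma, adjusted p = 0.586). For miR-339 the differences were −0.12 ± 0.18 and −0.29 ± 0.32 (limma adjusted p = 0.648 and 0.647). For miR-423 they were −0.21 ± 0.18 and 0.02 ± 0.22 (limma adjusted p = 0.514 and 0.948). Thus 0 of the 3 hairpins were called on D2 (background 0% of 60) or D9 (background 1.69% of 59).

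A reference should not follow the yield of the library. In the 16 TBI rats, log2 CPM of each miRNA was correlated with the log2 library total, which reached from 404542 to 2562083 reads on D2 and from 332161 to 2864893 on D9. The total is part of CPM, and whether the libraries of 1 day were prepared together is not given. On D2, 0 of the 8 members were related to it (background 0% of 191 miRNAs, permutation test with 100000 resamples), and Pearson's r lay between −0.34 (miR-423-3p) and 0.11 (miR-191a-5p). MiR-28-3p had r = −0.18 (permutation p = 0.4997, adjusted 0.996) and Spearman's rho = −0.14 (permutation p = 0.594, adjusted 0.999).

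On D9, 4 of the 8 members were related to the total by Pearson's r, where 36.7% of 166 miRNAs were, and 3 by Spearman's rho, where 24.1% were (permutation tests, adjusted over the 166). MiR-191a-5p rose with the total (r = 0.65, permutation p = 0.00501, adjusted 0.0231; rho = 0.66, adjusted 0.0409). The other 3 fell with it. MiR-423-5p had r = −0.66 (permutation p = 0.00636, adjusted 0.0252; rho = −0.65, adjusted 0.0409). MiR-423-3p had r = −0.62 (permutation p = 0.0107, adjusted 0.0358), while its rho of −0.60 missed the threshold (adjusted 0.0627). MiR-339-3p had r = −0.59 (permutation p = 0.0162, adjusted 0.0441; rho = −0.62, adjusted 0.0499).

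MiR-28-3p had r = −0.44 on D9 (permutation p = 0.0865, adjusted 0.158) and rho = −0.47 (permutation p = 0.0707, adjusted 0.164). MiR-103-3p had r = 0.49 (adjusted 0.0987) but rho = 0.12 (adjusted 0.774). Without the 2 rats whose totals were farthest from the median on the log scale, TBI− rats 2 and 4 with 332161 and 491342 reads, no relation passed the permutation test for any of 200 miRNAs. Then r was 0.30 for miR-191a-5p (permutation p = 0.298) and −0.62 for miR-423-5p (permutation p = 0.0183, adjusted 0.145), and for miR-28-3p it was −0.60 (permutation p = 0.0244, adjusted 0.174). For miR-423-3p it was −0.53 (permutation p = 0.0486, adjusted 0.254) and for miR-339-3p −0.47 (permutation p = 0.0931, adjusted 0.286). With 14 rats all 4 calls were lost, while of the 4 values of r that of miR-191a-5p fell the most. Their levels of miR-191a-5p, 16369 and 14412 CPM, were below those of the other TBI rats on D9. Among the 8 TBI rats of the first run of library numbers, miR-191a-5p had r = 0.81 (exact permutation test, p = 0.0134, adjusted 0.0493), miR-423-5p −0.58 (exact p = 0.136) and miR-28-3p −0.39 (exact p = 0.327). Both of those rats belong to this run. The other runs held too few TBI rats on D9 for a value.

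**Figure D4:**
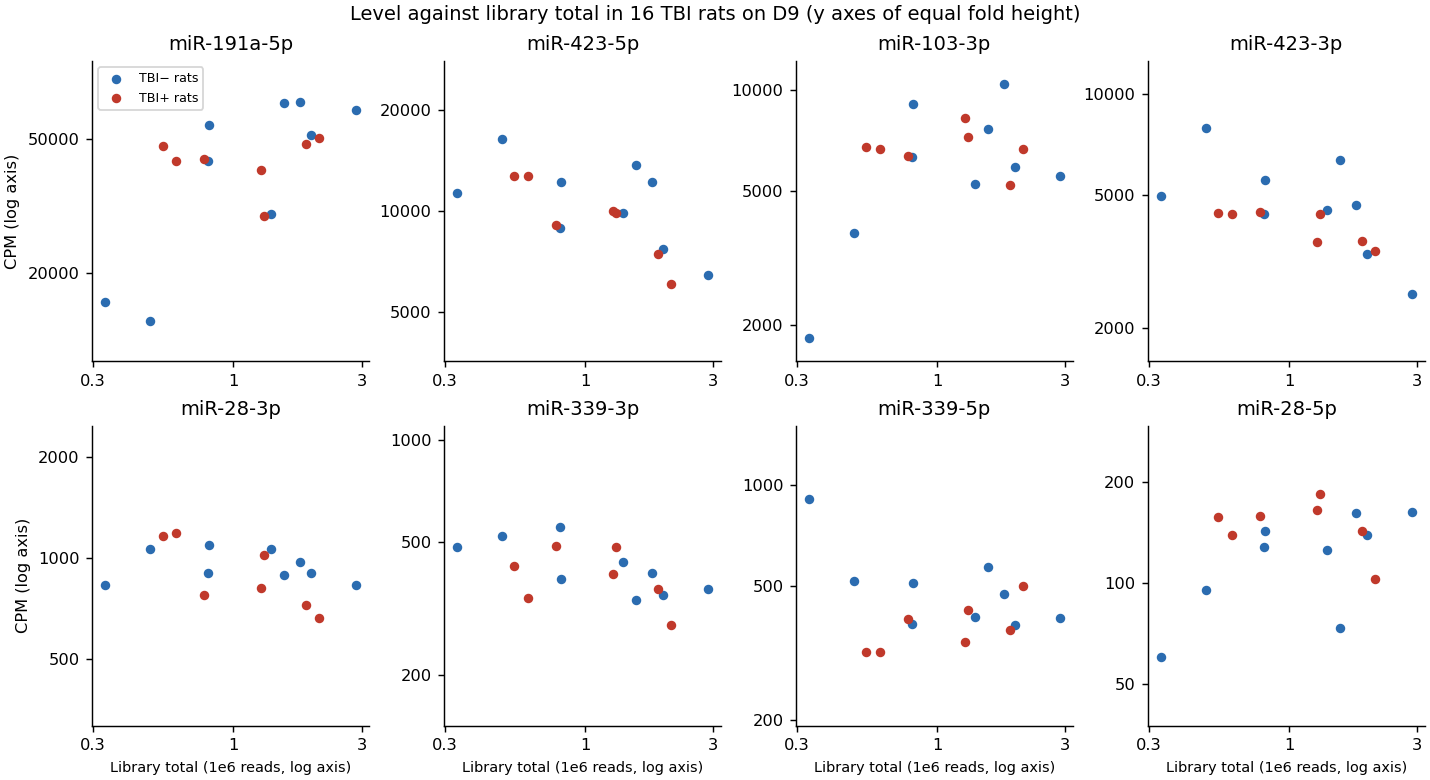
CPM (log axes of equal fold height) of the 8 members against the library total (in 1000000 reads, log axis) in the D9 libraries of the 7 TBI+ (red) and 9 TBI− (blue) rats. MiR-191a-5p rises with the total (r = 0.65) and miR-423-5p falls (r = −0.66), while r is −0.44 for miR-28-3p and 0.49 for miR-103-3p.

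The comparison of TBI with sham rats was then repeated with the scale set by each member in place of TMM, to see what its use as a reference does to the other miRNAs. With TMM, 35 miRNAs were called by edgeR on D2, 18 higher and 17 lower. Scaled to miR-28-3p, 23 were called, 17 higher and 6 lower, and 22 of these 23 were also called with TMM (62.9% of the TMM calls). The median difference of all miRNAs shifted upward by 0.09 (log2), and the share of calls that were higher went from 51.4 to 73.9%. With the geometric mean of all 8 members as the scale, 33 were called, 18 higher and 15 lower, and all 33 were also called with TMM.

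Single members gave other balances on D2. MiR-423-3p, whose level was lower in every TBI rat, gave 35 calls of which 31 were higher and 4 lower, with a median shift of 0.33. MiR-103-3p gave the opposite balance, 12 higher and 25 lower, with a median shift of −0.27. MiR-28-5p gave 5 higher and 15 lower. MiR-339-3p gave 17 higher and 4 lower, miR-339-5p 16 and 15, and miR-423-5p 17 and 5. MiR-191a-5p left only 2 calls, miR-124-3p and miR-124-5p, both higher in TBI rats. By construction, scaling to a member subtracts roughly its own difference from that of every miRNA, so the member's D2 difference enters these balances. MiR-339-3p, with a median shift of only 0.04, still gave 17 higher and 4 lower. MiR-191a-5p, with a shift of 0.05, left 2. What else set the balances was not tested. Leaving out 1 sham rat moved the counts as well. They ranged from 8 to 18 with miR-339-5p, 7 to 18 with miR-28-5p, 18 to 49 with miR-103-3p, 14 to 21 with miR-339-3p, 19 to 28 with miR-423-5p and 22 to 34 with miR-423-3p. The most calls came without sham rat 4 for these members, except miR-339-3p (without sham rat 3). The fewest came without sham rat 1, except miR-423-5p (without sham rat 2).

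On D9, TMM gave 19 calls (6 higher and 13 lower) and miR-28-3p gave 29 (2 higher and 27 lower), of which 15 were shared, that is 51.7% of the calls with miR-28-3p and 78.9% of those with TMM. The median of all miRNAs shifted by −0.20. The geometric mean of the 8 gave 25 calls (4 higher and 21 lower), and single members between 13 (each arm of miR-423) and 34 (miR-28-5p). Only miR-339-3p gave more higher than lower calls, 14 and 11. All of these D9 calls rested on 1 library: without sham rat 2, edgeR called 0 miRNAs with TMM (70 at an unadjusted p below 0.05) and 0 with each of the 9 reference scalings (49 to 71 at an unadjusted p below 0.05). DESeq2 was not run without single rats. On D2, leaving out 1 sham rat gave 21 to 31 calls with TMM and 15 to 22 with miR-28-3p, the fewest without sham rat 1. The geometric mean of the 8 gave 18 to 25, also with the fewest without sham rat 1.

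**Figure D5:**
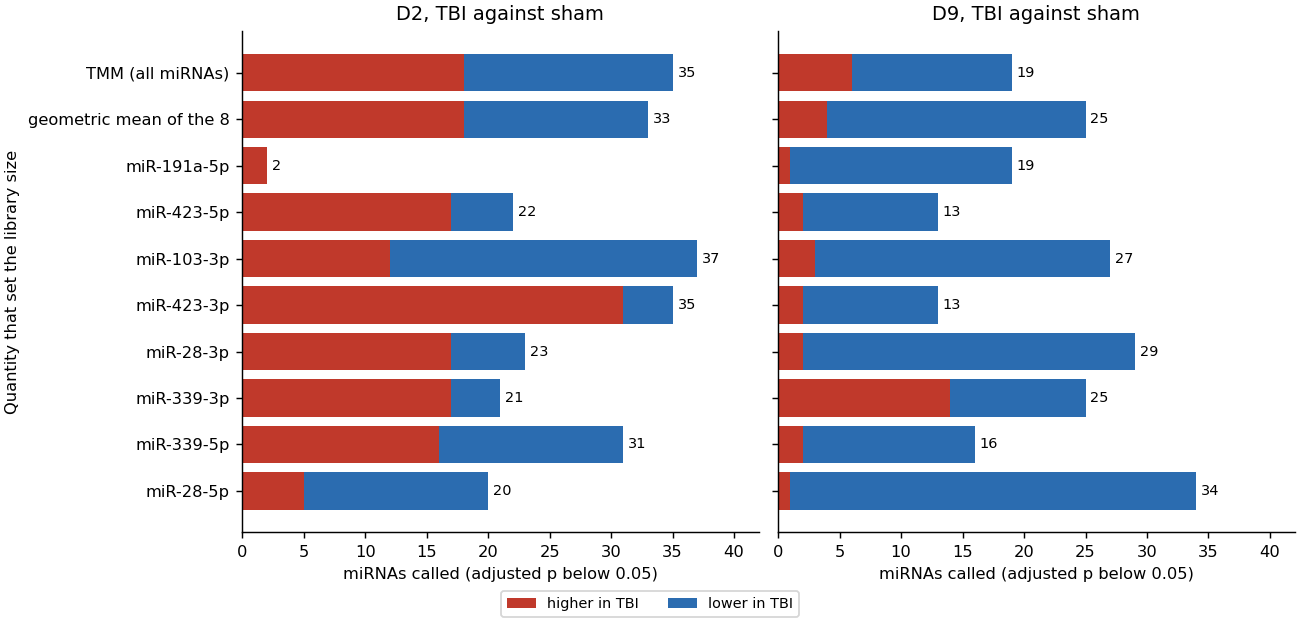
Number of miRNAs called higher (red) and lower (blue, stacked) in TBI than in sham rats by edgeR on D2 and D9 when the scale is set by TMM, by the geometric mean of the 8 members or by each member alone. On D2 the calls are 18 higher and 17 lower with TMM, 17 and 6 with miR-28-3p, 31 and 4 with miR-423-3p, and 2 and 0 with miR-191a-5p.

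For orientation, a list of 16 other miRNAs often proposed as plasma or serum references was described in the same way. Of these, 15 had enough reads to be ranked, with M between 0.684 and 1.19 and a median of 0.817, against a median of 0.732 for the 8 members. Left out was let-7d-5p, which was at 0 CPM in every D2 library. The best placed was let-7g-5p, which ranked 5th, and the last was miR-24-3p, with M 1.19 ± 0.47 (jackknife SE). That place rested on 1 library, since sham rat 2 had 53601 CPM of miR-24-3p on D9 against a sham median of 946, and without sham rat 2 its M was 0.723 (18th of 136). Of the 15 that were tested, 8 rose and 2 fell between D2 and D9 in TBI rats in edgeR, the latter being miR-107-3p and miR-320-3p. In this comparison 57.7% of the 130 well-covered miRNAs and 32.5% of all 581 were called. On D9, 1 of the 15, miR-24-3p, was lower in TBI than in sham rats in edgeR (background 3.51%). That call, like all others of that day, was lost without sham rat 2. Widely used miR-16-5p had M 0.801 and rose by 0.61 ± 0.18 between the days (edgeR adjusted p = 0.00736).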

How the data were processed

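Plasma small RNA of 4 sham, 7 TBI+ and 9 TBI− rats was sequenced on D2 and D9. Per the labels and methods, the authors checked reads with FastQC 11.8, trimmed them with Trimmomatic 0.36, discarded reads under 17 nt, merged both flow cells, aligned to the rat genome (Rno6) with Bowtie2 in its very-sensitive local mode and counted mature miRNAs of miRBase 22 with featureCounts of Subread. Handling of multiply mapping reads and of strand is not given in the sources used here. The deposited values are raw counts, 1 per miRNA and library. Columns were matched to samples by the titles, and 0 pairs of libraries were identical.

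The members, lists and tests were chosen with earlier results of these data known. CPM used library totals. Comparisons used edgeR 4.0.16 (quasi-likelihood test, TMM) in R 4.3.3, on all miRNAs with a read that day (565 on D2, 541 on D9, 581 for both) with Benjamini-Hochberg adjustment over all of them and calls at an adjusted p below 0.05. TBI against sham was fitted per day with TBI+ and TBI− rats as 1 group. The other comparisons of a day came from a separate fit with sham, TBI+ and TBI− rats as groups. Comparisons between days used 1 fit of all groups of treatment and day. Arm ratios used limma 3.58.1 on log2 of (3p reads + 0.5)/(5p reads + 0.5). Correlations used two-sided permutation tests in scipy 1.17.1 with 100000 resamples (exact for 8 rats). GeNorm M used 130 miRNAs, each with 10 or more reads in all 40 libraries. Intervals of single libraries are exact binomial (Clopper-Pearson, 95%) and cover counting error only, and library totals of 140636 to 2864893 reads set their width. Python 3.11.15, pandas 2.3.3, numpy 2.4.6 and matplotlib 3.10.9 were used.

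Named miRNAs are the 8 members, the other arms of their hairpins, miRNAs with the same seed, the 3 with the lowest M, the 3 closest to miR-28-3p and 16 often proposed references. Other names are given where a value turns on them: the miRNAs closest to miR-103-3p, the pair left by stepwise removal with the one before it, and the 2 calls that scaling to miR-191a-5p left, all chosen after their values were seen. Alternatives were DESeq2 1.42.0, RLE and total scaling, filterByExpr, thinning with seed 1, covariates (hemolysis index, run), scaling to miR-28-3p, replicate blocks, library numbers of 1 run only, and leaving out every sham rat in turn. A miR-451-5p covariate, leaving out sham rats under each reference scaling and the correlation within the first run were added after seeing the data. D2 and D9 libraries of 1 rat are paired by the labels, although their deviations from the group means correlated little (median r −0.03, over 0.1 in 8 of 20 rats). Scripts were tested on simulated data. PCR and imaging measurements of the study were not analysed here.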

Additional observations from a re-analysis of the deposited data

Results flagged for a closer look

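Of 66 groups of 4 to 10 values examined for a single value far from the rest, 2 held one, while chance alone gives such a value in about 1 of 20 groups. MiR-28-5p had 190 CPM in the D9 library of sham rat 4, from 68 reads (95% exact binomial interval 147 to 241 CPM), while the other 3 sham rats had 64.3 to 85.3 CPM from 11 to 13 reads each. That library had the largest total of the 4, 358202 reads. MiR-339-5p had 906 CPM in the D9 library of TBI− rat 2, from 301 reads (95% exact binomial interval 807 to 1015 CPM), while the median of the TBI− rats was 473 CPM. The same library held the lowest miR-103-3p of all 40, 1824 CPM.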

How the results depend on the processing

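No called result of the members changed its sign under any alternative. On D2, 1 member (miR-423-3p) was called with library totals as the only scale, under which 6.73% of the 565 miRNAs were called. That scale shifted the median of all miRNAs by −0.11. Between the days, the count of members called in sham rats (0) became 1 with DESeq2, filterByExpr, the miR-451-5p covariate and the rat as replicate block, and ranged from 0 to 1 when sham rats were left out in turn (1 without sham rat 4). In TBI+ rats it (0) became 2 with DESeq2 and filterByExpr and 1 with RLE, library totals and the miR-451-5p covariate, and ranged from 0 to 2 with sham rats left out (1 without sham rat 3, 2 without sham rat 4). In TBI− rats it (1) became 2 with DESeq2, library totals, filterByExpr, the miR-451-5p covariate and miR-28-3p scaling, and 0 with the hemolysis index. Over all TBI rats it (1) became 2 with the miR-451-5p covariate and miR-28-3p scaling and 0 with the hemolysis index. The share of all miRNAs called moved too. In sham, TBI+ and TBI− rats (5.68, 16.0 and 20.1%) it was 8.26, 16.9 and 22.03% with DESeq2, 14.5, 27.1 and 33.1% with filterByExpr (332 miRNAs), 8.09, 16.2 and 17.7% with the miR-451-5p covariate, 5.68, 14.5 and 19.8% with library totals and 4.65, 4.99 and 5.34% with the hemolysis index. It was 14.5% in TBI+ rats with RLE, 4.99% in sham rats with the rat block and 18.1% in TBI− rats with miR-28-3p scaling, and 7.48% in sham and 16.7% in TBI+ rats without sham rat 4. Over all TBI rats (32.5%) it was 27.2, 29.8 and 7.57% with the miR-451-5p covariate, miR-28-3p scaling and the hemolysis index. The cause of these differences was not tested.

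The rat as a block, which the labels pair, changed no other count of members called. Same-numbered rats of different groups share only a number (median correlation of deviations −0.15 on D2 and −0.08 on D9, over 0.1 in 5 of 15 pairs each), and the animal number as a replicate block left 0 members called on D2 and on D9.

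The D9 count related to the library total (4, with 61 of 166 miRNAs) became 2 with TMM-scaled CPM (56 of 166), 0 without the 2 farthest rats (0 of 200) and 1 within 1 run (47 of 166). M of miR-28-3p was 0.735 for miRNAs with at least 1 read and 0.512 on D2 alone. Against 35 with TMM on D2, scaling to miR-191a-5p, miR-28-3p, miR-28-5p, miR-339-3p and miR-423-5p called 2, 23, 20, 21 and 22 miRNAs, and leaving out sham rats gave 21 to 31. Against 19 on D9, scaling to miR-28-3p and miR-28-5p called 29 and 34, and leaving out sham rats gave 0 to 23, with 0 without sham rat 2. Of 1424 estimates that were not called, 159 changed sign. Depth limits the D9 sham values most, where miR-28-5p had 11 to 68 reads.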
